A study of Mus musculus with 19 samples.

Results

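The 92 nuclear genes of oxidative phosphorylation (OXPHOS) listed for these tissues were followed in the cornea and the conjunctiva of female C57BL/6 mice (C57BL/6J in the study's methods). The mice either ate ad libitum (AL) or were placed on calorie restriction (CR). The genes were taken by name from the 24557 features of each table, as every symbol beginning with *Nduf*, *Uqcr*, *Cox4* to *Cox8* or *Atp5*, or equal to *Sdha*, *Sdhb*, *Sdhc* or *Sdhd*, with pseudogenes left out. The rule uses names alone. RNA sequencing covered 19 samples in all: 5 AL and 5 CR samples of cornea, and 4 AL and 5 CR samples of conjunctiva. The titles of all of them carry the marks 6M and 50W. The labels name 1 inbred strain and no genetic change, so AL and CR samples of a tissue differed in diet alone as far as they say. According to the study's methods, the CR mice received a ration lowered in steps and were fed once a day shortly before the dark phase, corneal epithelium was scraped off, conjunctiva was excised, and several tissues were taken from each mouse. The methods also describe cohorts at different sites, and for part of them a CR chow richer in vitamins and micronutrients than the AL chow. The sample titles do not name a cohort. The labels do not say which tissues shared a mouse, and the p-values below measure the spread between these samples.

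OXPHOS is the process by which mitochondria turn the energy of nutrients into ATP. Complex I (NADH dehydrogenase) and complex II (succinate dehydrogenase) pass electrons to ubiquinone, complex III (cytochrome bc1) hands them to cytochrome c, complex IV (cytochrome c oxidase, COX) reduces oxygen, and the ATP synthase uses the proton gradient built on the way. Most subunits are encoded in the nucleus and a small set in mitochondrial DNA, so that both genomes have to be expressed in proportion. Several COX subunits exist as a common form and a form found mainly in heart and skeletal muscle. *Cox7a1* and *Cox8b*, both of the second kind, are also known from brown fat. Mitochondrially encoded subunits were not analysed here.

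Values below are normalized counts, meaning reads assigned to a gene divided by the authors' size factor of the library, with each tissue scaled in its own table. A log2 change is the CR minus AL difference of the mean log2(normalized count + 1), given with its standard error (SE). The minimum level for testing was a mean of 10 normalized counts. Tests were made with limma, p-values were adjusted by the Benjamini-Hochberg method over all genes tested in that tissue, and a gene was called at an adjusted p under 0.05 and a fold over 1.5. Corneal libraries held 10354125 to 14681223 counted reads, and conjunctival libraries 10726717 to 14433441. *Krt12*, the keratin of corneal epithelium, had a mean of 306448 normalized counts in AL corneas and 3006 in AL conjunctivas, each on its own table's scale, and *Muc5ac*, the goblet cell mucin, had 4515 in AL conjunctivas and did not reach the minimum in the cornea. The 12 conjunctival epithelium markers as a list summed to 3799 to 7879 CPM, meaning reads scaled to the counted reads of the library, in the conjunctiva and to 3438 to 7048 in the cornea, so the list did not separate the tissues. Between 33.6% and 40.1% of listed genes had no read in a conjunctival library, against 38.7% to 47.6% in a corneal one. The corneal libraries AL 4, CR 2, CR 3 and CR 7 stood apart with 45.2%, 46.1%, 45.6% and 47.6%, while the other 6 lay between 38.7% and 42.7%.

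In the cornea 85 of the 92 genes passed the minimum level. The 7 that did not were *Ndufs5* and 6 tissue-restricted forms (*Cox4i2*, *Cox6a2*, *Cox7b2*, *Cox8b*, *Cox8c* and *Ndufa4l2*). In the conjunctiva 88 passed, since *Cox6a2*, *Cox8b* and *Ndufa4l2* reached the minimum there. *Ndufs5*, an accessory subunit of complex I, was listed at 0 reads in all 19 libraries, and the cause was not tested. Among the 92 genes, 29 overlap another annotated gene in RefSeq, and the sources used here do not settle whether reads were counted by strand, so their values are less certain. Of the genes described most closely here, *Ndufaf2*, *Ndufs1*, *Ndufa9*, *Ndufa10*, *Ndufaf4*, *Uqcrh*, *Cox7a2* and *Cox6a2* are in that group.

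Together the 92 genes took 0.694% to 1.02% of the reads of a corneal library and 1.08% to 2.34% of those of a conjunctival one. On a scale of CPM per kilobase of GENCODE exon length, the complex IV subunit *Cox8a* was the highest in the cornea at a level of 581, with a range over libraries of 490 to 706. It was followed by *Cox7a2* at a level of 378 and *Cox6a1* at 373, both also subunits of complex IV, whose ranges overlapped each other. *Cox8a* was the highest in the conjunctiva too, at a level of 989.7 CPM per kilobase. The muscle form *Cox6a2* came next at a mean level of 724 with a range of 86.1 to 1930.2, so it was uneven between libraries. *Atp5s*, a coupling factor gene, stood at 2.73 CPM per kilobase in the cornea and 3.67 in the conjunctiva. Those levels assume that reads spread along the transcript, whereas the study's methods describe priming from the poly(A) tail, for which division by length would not apply.

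Without division by length, the highest member of each group in the cornea was *Ndufv1* for the complex I core at 88.2 CPM, *Ndufb3* for its accessory subunits at 213, *Ndufaf8* for its assembly factors at 54.1, and *Sdha* for complex II at 124. *Uqcrh* led complex III at 187 CPM, *Atp5a1* the F1 part of the ATP synthase at 345, *Cox8a* complex IV at 359.7, and *Atp5g3* the Fo part of the ATP synthase at 447. The highest relative of a complex IV subunit was *Cox7a2l* at 74.6 CPM, and *Atp5s* stood at 5.56. In the conjunctiva the same genes led except in 3 groups, where *Ndufa1* led the accessory subunits of complex I at 259.7 CPM, *Cox6c* complex IV at 640.4 and *Cox6a2* the restricted forms at 492. Over the 85 genes tested in both tissues, the mean CPM in the conjunctiva was a median of 1.71 times that in the cornea, with ratios from 0.794 to 17.1. All 9 conjunctival libraries lay above all 10 corneal ones for 30 genes, no gene showed the opposite, and the ranges overlapped for the other 55. Over all 11929 genes tested in both tissues the shares were 13.4% above and 4.59% below, and the median ratio was 1.15. No test was made of these levels because the tables were scaled separately. In bulk tissue, fewer cells of a type and less RNA per cell cannot be told apart.

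Many OXPHOS promoters carry sites for nuclear respiratory factor 1 (NRF1), GA-binding protein (GABPA), YY1 and the estrogen-related receptors (ERR). RefSeq promoters of 300 bases around a start site in GRCm38.p6 were at hand for 76 of the 92 genes as 81 sequences. The NRF1 core GCGCATGCG occurred on either strand in 10 of the 81 sequences (12.3%), against 1.75% of 32851 promoters of all genes. AAGATGGCG, a YY1 motif, occurred in 8 (9.88% against 1.40%), the GABPA motif CCGGAAGT in 5 (6.17% against 3.89%) and the ERR motif TCAAGGTCA in 2 (2.47% against 0.423%). For the more common motifs the shares were closer, with CCAAT in 43.2% against 37.4%, GGGCGG in 44.4% against 35.7% and CACGTG in 8.64% against 7.15%. These are matches of letters and not binding sites. To let the motifs be seen in place, 120 bases before and 30 after the start site are printed for 5 genes of the results that hold 1 of the first 4 motifs, and for the muscle form *Cox7a1*, which holds none of the 4 there. Capitals mark the motif, and in *Ndufaf4* and *Ndufa11* the NRF1 core is read on both strands as 2 overlapping matches.
Ndufaf4, chr4:24897963-24898112, plus strand: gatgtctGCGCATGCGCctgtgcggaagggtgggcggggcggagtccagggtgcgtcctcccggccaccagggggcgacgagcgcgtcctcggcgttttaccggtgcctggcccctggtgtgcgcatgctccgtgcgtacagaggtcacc
Ndufa11, chr17:56717642-56717791, plus strand: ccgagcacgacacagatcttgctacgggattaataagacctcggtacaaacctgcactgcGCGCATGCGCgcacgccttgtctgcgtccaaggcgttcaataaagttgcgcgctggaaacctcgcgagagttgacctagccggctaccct
Uqcrh, chr4:116075041-116075190, minus strand: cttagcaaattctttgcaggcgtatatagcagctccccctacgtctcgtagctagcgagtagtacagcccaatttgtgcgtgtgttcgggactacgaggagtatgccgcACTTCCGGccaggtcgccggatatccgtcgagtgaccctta
Ndufaf8, chr11:120098814-120098963, plus strand: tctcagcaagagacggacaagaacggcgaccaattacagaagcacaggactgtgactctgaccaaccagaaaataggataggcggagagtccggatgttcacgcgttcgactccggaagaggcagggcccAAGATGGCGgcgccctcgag
Atp5g3, chr2:73911297-73911446, minus strand: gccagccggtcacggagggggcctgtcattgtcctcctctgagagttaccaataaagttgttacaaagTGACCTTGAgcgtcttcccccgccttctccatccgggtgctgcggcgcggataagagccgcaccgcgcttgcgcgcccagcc
Cox7a1, chr7:30184051-30184200, plus strand: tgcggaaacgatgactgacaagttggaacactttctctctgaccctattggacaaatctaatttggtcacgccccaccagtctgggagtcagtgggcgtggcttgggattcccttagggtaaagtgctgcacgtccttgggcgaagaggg

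The first comparison asked whether CR changed these genes in the cornea. None of the 85 genes tested was called, against 150 of 12278 genes of the whole table (1.22%), and none had an adjusted p under 0.05, against 1.53% of all genes. Most of them nevertheless had lower values in CR corneas: 70 of 85 (82.4%) had a log2 change below 0, against 53.1% of all genes tested, and the median was -0.15 against -0.03. At an unadjusted p under 0.05, 7 were lower (background 9.55%) and 2 were higher (background 8.52%). Every CR library lay below every AL library for *Ndufaf2* and *Ndufs1* (background 1.89%), and the opposite held for no gene (background 2.08%). For 48 of 85 (56.5%) the 95% confidence interval lay within a 1.5-fold change either way, which was so for 39.7% of all genes.

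That lower median in the cornea went along with a property of the libraries. Relative to each gene's mean over the 10 libraries, the median deviation of the 85 genes on the log2 scale was 0.29, 0.13, 0.15, -0.26 and 0.13 in AL 1 to AL 5, and 0.16, -0.22, -0.20, 0.04 and -0.19 in CR 1, 2, 3, 4 and 7. The lowest 4 were AL 4, CR 2, CR 3 and CR 7, the same 4 libraries in which the most genes had no read. With the share of genes at 0 reads as a covariate, 27 of 85 had a change below 0 and the median was 0.08. Without those 4 libraries, which left 4 AL and 2 CR, 51 of 85 were below 0 and the median was -0.06. Their part in the lower median cannot be told apart from diet in these data, since 3 of the 4 are CR libraries. *Obp1a*, *Scgb2b2* and the other transcripts of a list of 15 lacrimal gland genes summed to 3.58 to 6036 CPM in AL corneas and to 0 to 3.75 CPM in CR corneas, and without AL 1, which held the most, 65 of 85 genes were below 0 with a median of -0.10.

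**Figure D1:**
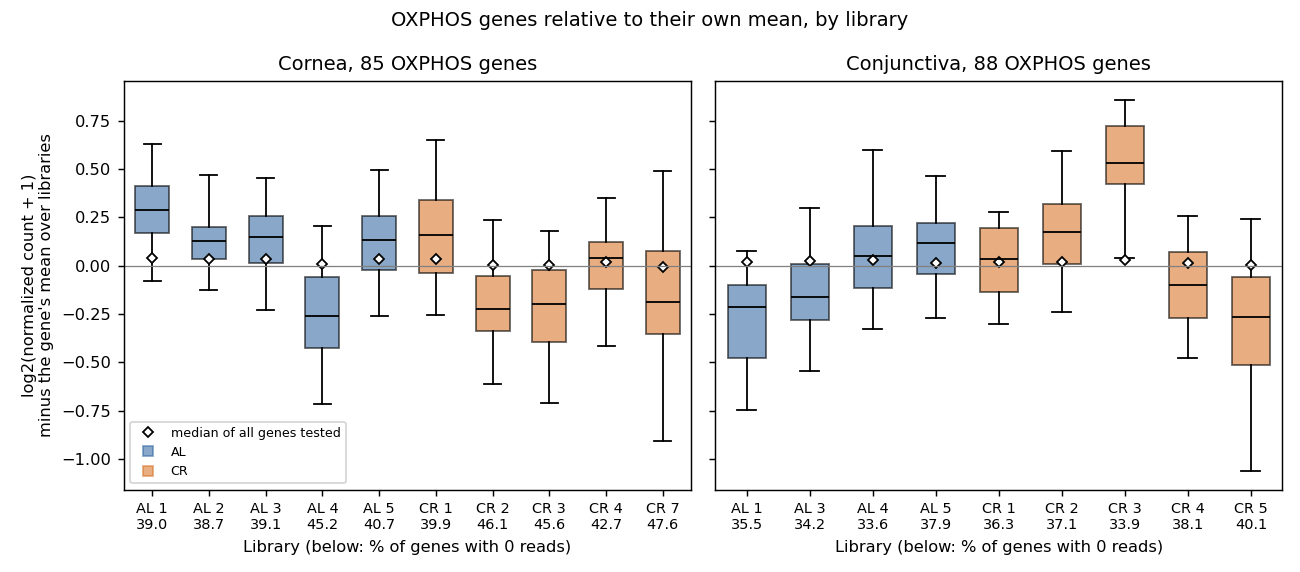
Each box gives the spread over the tested OXPHOS genes in 1 library of log2(normalized count + 1) minus the gene's mean over the libraries of that tissue (line, median; box, interquartile range; whiskers, 5th to 95th percentile), with diamonds for the median of all genes tested and the percent of genes at 0 reads under each name. Corneal libraries AL 4, CR 2, CR 3 and CR 7 have both the lowest boxes and the highest percent at 0, and conjunctival library CR 3 lies above all others.

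Complex I holds the most members. Of its 7 core subunits 6 were lower in CR corneas, with a median log2 change of -0.20. *Ndufs1* (chr1:63143592-63176822 in GRCm38.p6), the iron-sulfur subunit through which electrons from NADH pass, had 450.0, 478, 441, 386 and 456 normalized counts in the 5 AL corneas and 266, 316, 305, 379 and 343 in the 5 CR corneas. The highest CR value of 379 was just under the lowest AL value of 386, so the groups did not overlap. Its log2 change was -0.46 (SE 0.14, limma adjusted p = 0.0908). *Ndufv2* and *Ndufv1*, which between them hold flavin and iron-sulfur centres of the NADH-binding arm, had log2 changes of 0.00 and -0.06.

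Among 28 accessory subunits of complex I tested, 25 were lower in CR corneas and 3 at an unadjusted p under 0.05, with a median log2 change of -0.15. *Ndufa9* (chr6:126821863-126849144), which joins the membrane arm to the peripheral arm, had 703, 654, 609, 434 and 708 normalized counts in AL corneas against 435, 361, 488, 535 and 402 in CR corneas. AL 4 alone of the AL libraries lay within the CR range. The log2 change was -0.48 (SE 0.15, limma adjusted p = 0.124). *Ndufb7* differed by -0.50 and *Ndufab1*, the mitochondrial acyl carrier protein, by -0.61 on the log2 scale, with limma adjusted p of 0.214 and 0.249. *Ndufc2*, the accessory subunit with the highest positive change, differed by 0.17 (SE 0.14, limma adjusted p = 0.541).

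The 8 assembly factors of complex I, which help to build it and are not part of the finished enzyme, varied among themselves. *Ndufaf2* (chr13:108052589-108158652), a late assembly factor, had 145, 152, 99.3, 111 and 146 normalized counts in AL corneas and 66.8, 96.1, 47.7, 80.7 and 58.5 in CR corneas. The groups did not overlap, and CR 2 and AL 3 were nearly equal. Its log2 change of -0.91 (SE 0.24, 95% interval -1.42 to -0.40) had the smallest adjusted p of the 85 genes (limma, 0.0661) and did not pass. *Ndufaf4* (chr4:24898083-24905001), whose protein takes part in an early stage of assembly, went the other way with 175, 179, 168, 176 and 116 in AL corneas and 234, 322, 273, 146 and 248 in CR corneas. CR 4 was the single CR library within the AL range. Its log2 change was 0.56 (SE 0.21, limma adjusted p = 0.177). Over the 8 factors, 5 were lower and 3 higher, with a median of -0.23.

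**Figure D2:**
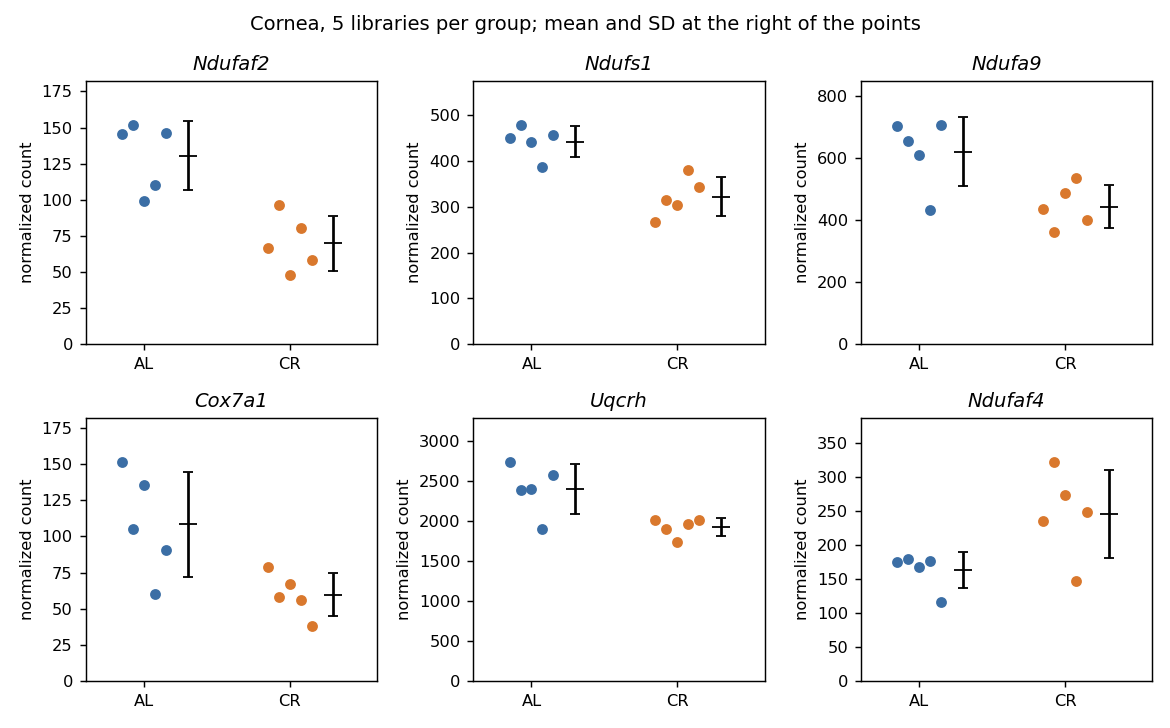
Normalized counts of 6 OXPHOS genes in the cornea, 1 point per library, 5 AL (blue) and 5 CR (orange), with the mean and SD at the right of each group. *Ndufaf2* and *Ndufs1* are without overlap between the diets, and *Ndufaf4* is the gene shown with a higher mean under CR, 245 against 163.

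In complex III, 7 of 8 subunits were lower in CR corneas, with a median log2 change of -0.18. *Uqcrh* (chr4:116066965-116075070), the hinge subunit that holds cytochrome c1 to the complex, had 2744, 2386, 2401, 1895 and 2574 normalized counts in AL corneas and 2015, 1895, 1742, 1964 and 2019 in CR corneas. AL 4 again lay among the CR values, and the other 4 AL libraries were above all of them. The log2 change was -0.31 (SE 0.11, limma adjusted p = 0.160). In complex II, 3 of 4 subunits were lower with a median of -0.05 (-0.093 to 0.0093 without 1 library), while *Sdhd*, which anchors the enzyme in the membrane, differed by 0.81. *Sdhd* was uneven within both groups, at 59.4, 219.6, 92.8, 40.7 and 74.2 normalized counts in AL and 90.9, 61.3, 143, 254 and 306 in CR corneas, and the change had an SE of 0.52 (limma adjusted p = 0.436).

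Of 11 common complex IV subunits 9 were lower in CR corneas, with a median log2 change of -0.08. *Cox4i1*, the regulatory subunit, had the highest change at 0.14 (SE 0.13, limma adjusted p = 0.587). Among the restricted forms, *Cox7a1*, the heart and skeletal muscle form of subunit 7a, had 152, 105, 135, 60.1 and 90.6 normalized counts in AL corneas and 78.9, 58.4, 67.4, 56.2 and 38.1 in CR corneas. The CR range overlapped AL 4 only. Its log2 change was -0.82 (SE 0.29, limma adjusted p = 0.155). The 20 skeletal muscle markers summed to 21.3 to 53.5 CPM in the cornea, the muscle form *Cox6a2* was found in 1 of 10 libraries, at 5.48 normalized counts in CR 1, and *Cox8b* in none. Such a count of 0 allows up to 3 reads, or 2.27 to 3.30 normalized counts in a corneal library, and covers counting error only.

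For the ATP synthase, 4 of 5 F1 subunits and 7 of 10 subunits of Fo and the stalk were lower in CR corneas, with medians of -0.13 and -0.14. *Atp5f1* (chr3:105942698-105959263), the b subunit of the stalk, was higher. It had 1058, 1106, 903, 1012 and 984 normalized counts in AL and 1037, 1120.4, 1249, 1145 and 1663 in CR corneas, where CR 7 stood out. Its log2 change was 0.28 (SE 0.13, limma adjusted p = 0.253). *Atp5d* and *Atp5b*, both of the F1 part, had log2 changes of 0.00 and -0.06.

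Removing single libraries moved the corneal count of called genes once. Without AL 4, *Ndufaf2*, *Ndufa9* and *Cox7a1* were called, with log2 changes of -0.97, -0.60 and -1.01 and limma adjusted p of 0.0346, 0.0188 and 0.0372. With AL 4 left out, 536 of 12310 genes were called over the whole table (4.35%), so the 3 of 85 stood no higher than the background. Without AL 4, 72 of 85 genes were below 0 and the median was -0.24. All other removals of 1 library left 0 called.

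In the conjunctiva, where the same question was asked, the median change was above 0. None of 88 genes tested was called, against 50 of 13929 genes overall (0.359%), and at an adjusted p under 0.05 alone the shares were the same, 0 of 88 against 0.359%. Here 67 of 88 (76.1%) had a log2 change above 0, against 48.0% of all genes tested, and the median was 0.14 against -0.02. At an unadjusted p under 0.05, *Ndufa10* was higher (1 gene, background 4.53%) and no gene was lower (background 4.87%). The groups did not overlap for any of the 88 genes in either direction (background 1.92% for CR above AL and 1.95% for CR below AL). For 37 of 88 (42.0%) the 95% interval lay within a 1.5-fold change either way, which was so for 34.4% of all genes.

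Single libraries weighed heavily in the conjunctiva. Relative to each gene's mean over the 9 libraries, the median deviation was -0.21, -0.16, 0.05 and 0.12 in AL 1, 3, 4 and 5, and 0.03, 0.17, 0.53, -0.10 and -0.26 in CR 1 to CR 5. CR 3 was far above the rest, with 83 of the 88 genes over their own mean, and without it 36 of 88 genes were below 0 and the median was 0.03. Without AL 4 instead, 13 of 88 were below 0 and the median was 0.18. CR 3 also held the most skeletal muscle RNA: the 20 muscle markers summed to 28573 CPM in CR 3 and to 2699 to 17106 CPM in the other conjunctival libraries. All 20 had a log2 change above 0, with a median of 0.51 and none called. With the log2 of that sum as a covariate, 31 of 88 OXPHOS genes were below 0, the median was 0.09, and none was called. All 8 fibroblast markers and all 8 tested macrophage and leukocyte markers had log2 changes below 0, with medians of -0.70 and -0.59, and the fibroblast collagens *Col1a1* and *Col3a1* were called. The part of these other cells in the OXPHOS values was not tested beyond the muscle covariate.

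**Figure D3:**
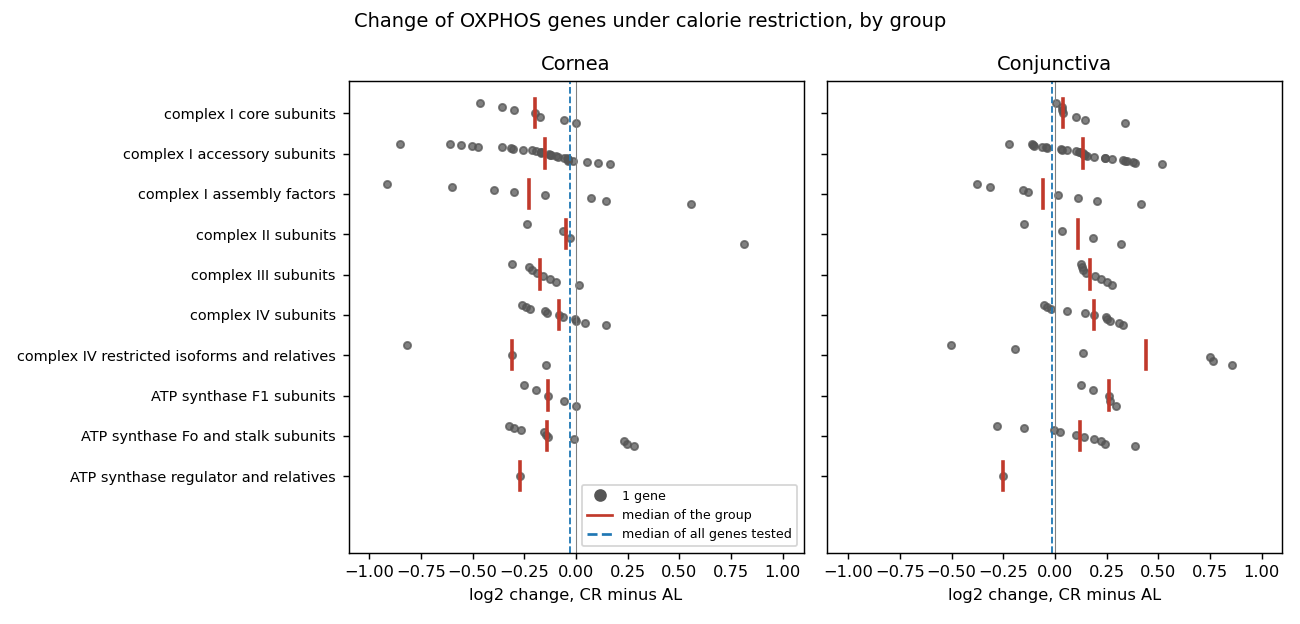
Log2 change (CR minus AL) of every tested OXPHOS gene, 1 point per gene, by functional group in the cornea (left) and the conjunctiva (right), with red bars for group medians and a dashed line for the median of all genes tested. All 10 group medians are below 0 in the cornea, and 8 of 10 are above 0 in the conjunctiva.

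All 7 core subunits of complex I had log2 changes above 0 in the conjunctiva, with a median of 0.04 that ran from -0.11 to 0.20 when 1 library was left out. *Ndufv1*, which binds NADH, had the highest change of them, at 0.34 (SE 0.17, limma adjusted p = 0.540). Its values were 1667, 1207, 1487 and 1916 normalized counts in AL and 1816, 2187, 2509, 1871 and 1549 in CR samples, with CR 3 highest and AL 3 lowest. Among accessory subunits 21 of 28 were higher, with a median of 0.14.

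*Ndufa10* (chr1:92439486-92473825), an accessory subunit of the membrane arm, had 1325, 1516, 1708 and 1618 normalized counts in AL and 1568, 2473, 3175, 2409.7 and 1728 in CR conjunctivas. CR 2, CR 3, CR 4 and CR 5 lay above every AL sample. The log2 change was 0.52 (SE 0.19, 95% interval 0.12 to 0.91, limma adjusted p = 0.348) and 0.38 without CR 3. *Ndufa11*, another membrane-arm subunit, differed by 0.33 (SE 0.16, limma adjusted p = 0.538), with 1015, 1176, 1309 and 1679.8 in AL and 1438, 1883, 1756, 1553 and 1411 in CR samples. *Ndufa9* had 711, 723, 724 and 613 normalized counts in AL and 823, 868, 1238, 922 and 631 in CR samples. CR 5 alone was within the AL range, and the log2 change was 0.34 (SE 0.17, limma adjusted p = 0.551).

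Of the complex I assembly factors 4 of 8 were higher and 4 lower in CR conjunctivas, with a median log2 change of -0.06 (-0.15 to 0.11 without 1 library). *Ndufaf2* had 98.9, 146, 162 and 107 normalized counts in AL and 69.2, 57.1, 137, 109.6 and 143 in CR samples, and its log2 change was -0.38 (SE 0.31, limma adjusted p = 0.754). *Ndufaf7*, a methyltransferase that acts on complex I, differed by -0.32 and *Ndufaf8* by -0.13. *Ndufab1* and *Atp5s* completed the 5 lower genes with the smallest p, at -0.22 and -0.25, and the limma adjusted p of these 4 genes ran from 0.794 to 0.873.

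All 8 complex III subunits and all 5 F1 subunits of the ATP synthase had log2 changes above 0 in the conjunctiva, with medians of 0.17 and 0.26. In complex IV 8 of 11 common subunits were higher, with a median of 0.19. *Ndufa4*, now counted with complex IV, had 1847, 2669.6, 3374 and 2316 normalized counts in AL and 3352, 3482, 3016, 2905 and 2728 in CR samples. AL 4 lay inside the CR range and the other 3 AL samples below it, and the log2 change was 0.31 (SE 0.16, limma adjusted p = 0.587). Complex II and the Fo part of the ATP synthase had medians of 0.11 and 0.12, which ran from -0.0035 to 0.22 and from 0.018 to 0.20 when 1 library was left out. For accessory complex I subunits, complex III, common complex IV subunits and F1 the lowest such medians were 0.035, 0.073, 0.098 and 0.098.

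The muscle forms of COX varied widely between conjunctival libraries of the same diet. *Cox6a2* (chr7:128205435-128206366) had 3193, 759, 5651 and 5938 normalized counts in AL and 6747, 11497, 15152, 3507 and 793 in CR samples. *Cox7a1* (chr7:30184171-30186030) had 1146, 219.9, 1476 and 1197 in AL and 1370.5, 3067, 3504, 1131 and 429 in CR samples. *Cox8b* (chr7:140898942-140900446) had 695, 137, 740.2 and 1405 in AL and 1023, 1950.3, 1944, 718 and 281 in CR samples. All 3 were lowest in AL 3 and CR 5 and highest in CR 2 and CR 3. Summed muscle markers were likewise lowest in AL 3 and CR 5, at 2699 and 3164 CPM, and highest in CR 2 and CR 3. The log2 changes of *Cox6a2*, *Cox7a1* and *Cox8b* were 0.75, 0.86 and 0.76 with SEs of 1.04, 0.82 and 0.84, and with the muscle sum as a covariate they were 0.25, 0.45 and 0.36 (limma adjusted p from 0.241 to 0.746). Of the brown fat genes examined, *Ucp1* had no read in any of the 9 conjunctival libraries. *Cidea* and *Elovl3* were highest in CR 5, at 949.7 and 452 normalized counts, a library in which *Cox7a1* and *Cox8b* were low. *Dio2*, of the same list, went the other way and was lowest in CR 5, at 351 normalized counts. *Ndufa4l2*, a relative of *Ndufa4* known from hypoxia, was low at 2.86 to 45.8 normalized counts and its log2 change was -0.50 (SE 0.75).

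**Figure D4:**
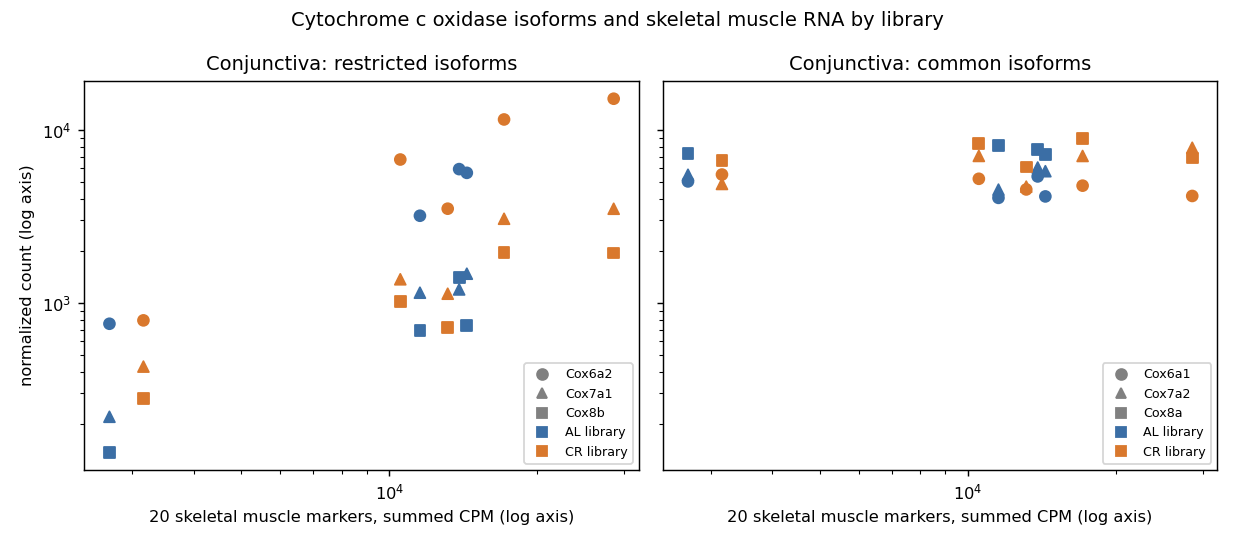
Normalized counts of restricted (left) and common (right) forms of COX subunits 6a, 7a and 8 in the 9 conjunctival libraries, against the summed CPM of 20 skeletal muscle markers, both axes logarithmic, AL in blue and CR in orange. *Cox6a2* runs from 759 to 15152 along the muscle sum, while *Cox8a* stays between 6105 and 8941.

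To see whether the balance of paired forms moved with diet, the log2 ratio of 2 paralogs within a library was compared, which does not depend on library scaling. Over 13 tests, 5 in the cornea and 8 in the conjunctiva, no ratio passed the Benjamini-Hochberg adjustment. The smallest two-sided exact permutation p is 0.00794, both for 5 against 5 and for 4 against 5 libraries. Adjusted over 13 tests, a single pair at that p would not have passed. The lack of a passing ratio therefore cannot show that the balance of forms stayed the same. *Cox7a1* to *Cox7a2* in the cornea came closest, with a mean log2 ratio of -5.40 ± 0.28 in AL (SD, n = 5) and -5.96 ± 0.24 in CR (SD, n = 5), a difference of -0.56 (exact permutation test, two-sided, p = 0.0159, adjusted p = 0.206). In the conjunctiva that ratio was -2.73 ± 1.28 in AL (SD, n = 4) and -2.06 ± 0.96 in CR (SD, n = 5; exact permutation p = 0.484, adjusted p = 0.837). *Cox7a2l*, a relative of complex IV subunits, differed by -0.05 against *Cox7a2* in both tissues (corneal exact permutation p = 0.762, conjunctival exact permutation p = 0.873, adjusted p = 0.913 for both). The 3 genes for subunit c of the ATP synthase encode the same mature protein. The log2 ratio of *Atp5g1* to *Atp5g3* was -3.78 in AL and -3.65 in CR corneas, a difference of 0.13 (exact permutation p = 0.484, adjusted p = 0.837). The other 8 differences, which include *Cox6a2* to *Cox6a1* (0.69) and *Cox8b* to *Cox8a* (0.81) in the conjunctiva, lay between -0.81 and 0.81 with exact permutation p from 0.214 to 0.913.

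The design also allows the CR effect to be compared between tissues, since the scale of each table cancels in a difference of log2 changes. The SE and p of such a difference treat the tissues as independent, though several tissues were taken from each mouse. Of 85 genes tested in both, 75 (88.2%) had a lower log2 change in the cornea than in the conjunctiva, against 53.9% of the 11929 genes tested in both, and the median difference was -0.31 against -0.03. No OXPHOS gene differed at an adjusted p under 0.05 (background 0.0168%). At an unadjusted p under 0.05, 9 had a lower change in the cornea (background 3.78%) and none a higher one (background 3.70%). For 53 of the 85 genes the change was below 0 in the cornea and above 0 in the conjunctiva, and for 3 it was the reverse. *Ndufa9* had the smallest p, with a difference of -0.82 (SE 0.23, limma adjusted p = 0.301). *Ndufa10* followed with -0.65 (SE 0.23, limma adjusted p = 0.502) and *Uqcrh* with -0.43 (SE 0.18, limma adjusted p = 0.620). In the other direction *Ndufaf4* (0.44), *Sdhd* (0.96) and *Atp5f1* (0.25) came first, with no difference passing. The muscle covariate in the conjunctiva left 73 of 85 genes lower in the cornea and a median of -0.24, and leaving out conjunctival CR 3 left 68 of 85 and a median of -0.20.

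**Figure D5:**
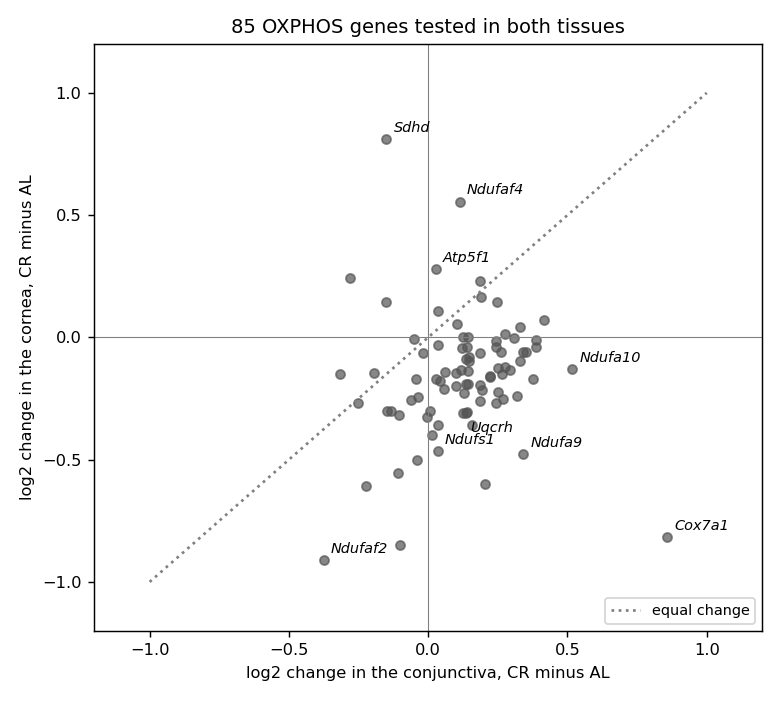
Log2 change (CR minus AL) in the cornea against that in the conjunctiva for the 85 OXPHOS genes tested in both, 1 point per gene, with a dotted line of equal change. For 53 genes the change is below 0 in the cornea and above 0 in the conjunctiva, and *Ndufa9* lies among them at -0.48 in the cornea and 0.34 in the conjunctiva.

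Genes that serve the same machinery were examined as lists. Of 29 assembly factors for complexes III and IV tested in the cornea, 21 had log2 changes below 0 with a median of -0.27, and none was called. At an unadjusted p under 0.05, 8 of the 29 were lower and 2 higher, where all genes gave 9.55% and 8.52%. *Coa3*, an early factor for COX, had a mean of 597 normalized counts in AL and 463 in CR (log2 change -0.36, limma adjusted p = 0.141). *Coa4* had 80.0 and 52.6 (log2 change -0.61, limma adjusted p = 0.237). These were the 2 of the 29 for which every CR library lay below every AL library (background 1.89%), and they were named after their values were seen. In the conjunctiva 14 of 29 were below 0 and the median was 0.02. Assembly factors of complexes I, II and the ATP synthase outside the *Nduf* names were even in the cornea, with 7 of 14 higher, and 9 of 14 were higher in the conjunctiva. Cytochrome c1 (*Cyc1*) differed by -0.17 in the cornea and 0.23 in the conjunctiva, and somatic cytochrome c (*Cycs*) by -0.10 and -0.21, none called.

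Regulators of these genes showed no called change in either tissue. *Ppargc1a*, the coactivator of mitochondrial biogenesis, differed by -0.39 (SE 0.48, limma adjusted p = 0.705) in the cornea and 0.57 (SE 0.22, limma adjusted p = 0.420) in the conjunctiva, where its mean was 381 normalized counts in AL and 538 in CR. Its relative *Ppargc1b* differed by -0.26 and 0.25. *Esrra*, which encodes the estrogen-related receptor alpha, differed by 0.02 in the cornea and -0.19 in the conjunctiva. *Nrf1* differed by 0.27 and -0.09, *Gabpa* by 0.01 and -0.13, and *Tfam*, the factor that packages and transcribes mitochondrial DNA, by -0.07 and 0.02. The SEs of these 5 genes ran from 0.13 to 0.22.

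Among 18 enzymes of the citric acid cycle and pyruvate dehydrogenase, 17 had log2 changes above 0 in the conjunctiva, with a median of 0.18 and none called, and 13 were below 0 in the cornea with a median of -0.04. *Pdhx*, which anchors a component of the pyruvate dehydrogenase complex, was called in the cornea. Its mean was 413 normalized counts in AL and 235 in CR corneas, or -0.85 on the log2 scale (SE 0.20, limma adjusted p = 0.0380). It was 1 of 2 among the 18 for which every CR library lay below every AL library (background 1.89%). The call was lost when AL 1, AL 2, AL 3, AL 5, CR 2 or CR 3 was left out (limma adjusted p from 0.0813 to 0.118), and also when each library's percent of genes without reads entered the fit (log2 change -0.53, limma adjusted p = 0.277).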

How the data were processed

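RNA sequencing of cornea (5 AL, 5 CR) and conjunctiva (4 AL, 5 CR) was analysed, grouped by the sample labels. The authors trimmed single-end reads, aligned them with STAR, counted them with HTSeq and normalized them with DESeq2. The deposited values are log2(count divided by size factor + 1), 1 table per tissue, and 100% of them gave whole reads within a tolerance of 0.01. The build is mm10 in the study's methods and GRCm39 in the submitters' processing notes, and the library kit also differs between those sources, so coordinates are RefSeq's and not the files'. Every column was assigned to a sample (0 were left over). The rule for members uses gene names alone, but it and the gene lists were chosen with earlier results of these data known.

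Genes with a mean of 10 normalized counts were tested with limma 3.58.1 in R 4.3.3 (trend and robust options, statmod 1.5.0), CR against AL, each tissue separately. The difference between tissues was that of the 2 log2 changes, with an SE combined from both limma fits as if independent. Its p came from a t-test with Satterthwaite degrees of freedom and was adjusted over all genes. The limma fit was checked on simulated counts with known changes, drawn independently for each gene and library. That check did not cover the difference between tissues, the permutation test or shifts shared by many genes of a library. Named genes were those called, the 5 higher and 5 lower OXPHOS genes with the smallest p, the highest in each group, the paralog pairs, 6 regulators, and 3 in each direction between tissues. Other genes were named after their values were seen.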

Additional observations from a re-analysis of the deposited data

Results flagged for a closer look

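Of 100 groups of 4 or 5 libraries examined for a single library far from the others (Dixon's ratio of gap to range, against its 95% critical value), 9 were picked out, and chance alone picks out about 1 in 20 groups. All 9 were AL groups.

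In the cornea, *Ndufaf4* in AL 5 had 116 normalized counts against 168 to 179 in the other AL libraries (ratio 0.8519). *Ndufa10* in AL 4 had 710.1 against 975.3 to 1009 (ratio 0.9022). The log2 ratio of *Atp5g2* to *Atp5g3*, both for subunit c of the ATP synthase, was -9.80 in AL 2 against -8.24 to -7.87 (ratio 0.8108).

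In the conjunctiva, *Ndufa9* in AL 5 had 613 normalized counts against 711 to 724 (ratio 0.8879), and *Atp5f1* was highest there at 2396 against 1610.3 to 1684 (ratio 0.8879). *Sdhd* in AL 1 had 293 against 408 to 409.6 (ratio 0.9877). AL 3 held the least muscle RNA of its group. Its summed skeletal muscle markers were 11.4 on the log2(CPM + 1) scale against 13.5 to 13.8 (ratio 0.8688), *Cox7a1* had 219.9 normalized counts against 1146 to 1476 (ratio 0.8671), and the log2 ratio of *Cox7a1* to *Cox7a2* was -4.64 against -2.34 to -1.97 (ratio 0.8606).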

How the results depend on the processing

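No OXPHOS gene was called in the conjunctiva under any alternative. None differed between tissues at an adjusted p under 0.05 in the alternatives run for that difference, which did not include the share of genes at 0 reads. In the cornea the count of 0 became 2 at an adjusted p under 0.10 alone, for which the share over all genes was not computed. With array weights it became 3, where 705 of 12278 genes were called over the whole table. When 1 library was left out it ran from 0 to 3, with the 3 reached without AL 4, where 536 of 12310 genes were called. The 70 genes lower in CR corneas became 27, with a median of 0.075, with the share of genes at 0 reads as a covariate. The 21 lower in CR conjunctivas became 13 with array weights, 32 with voom on recovered reads, 10 with the share at 0, and 13 to 36 without 1 library. With the share at 0, the conjunctival changes of *Ndufaf7*, *Ndufab1*, *Sdhd* and *Atp5f1* were 0.015, 0.074, 0.19 and -0.011. *Atp5f1* was also -0.074 with quantile normalization, -0.014 with array weights and -0.067 with voom. Without 1 conjunctival library, *Atp5s* ran from -0.44 to 0.049, *Sdhd* from -0.36 to 0.098 and *Atp5f1* from -0.055 to 0.16. Paralog differences that turned direction without 1 library were *Cox6b2* to *Cox6b1* (-0.27 to 0.60 in the cornea, -0.64 to 0.22 in the conjunctiva), *Cox7a2l* to *Cox7a2* (-0.13 to 0.067 and -0.19 to 0.033), *Atp5g2* to *Atp5g3* in the cornea (-0.0043 to 0.72) and *Cox6a2* to *Cox6a1* in the conjunctiva (-0.015 to 1.40). The cause of these moves was not tested. Correlations of same-numbered AL and CR libraries ran from -0.30 to 0.29 for the cornea and from -0.06 to 0.05 for the conjunctiva. With so few libraries they cannot decide whether replicate numbers pair the samples. With the replicate block 0 OXPHOS genes were called in either tissue, and 66 corneal and 25 conjunctival ones were lower. The calls of *Hk1*, *Pdhx*, *Col1a1* and *Col3a1* were not made with it (limma adjusted p 0.0877, 0.155, 0.0929 and 0.0665). With a block by shared title, 73 of 85 OXPHOS genes had the lower change in the cornea. The muscle covariate and the removal of 4 corneal libraries were chosen after seeing the data. Over all genes, calls in the cornea ran from 53 to 536 without 1 library and reached 705 with array weights, against 150. Groups held 4 or 5 libraries. On the log2 scale the median 95% interval of an OXPHOS gene reached 0.31 to either side in the cornea and 0.41 in the conjunctiva. Changes smaller than these mostly could not be told from no change. The intervals are not adjusted over genes, and a call required both the adjusted p and the fold to pass. Larger changes could therefore be missed too, as *Ndufaf2* at -0.91 in the cornea was not called (limma adjusted p = 0.0661).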

Other observations

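Glycolysis was followed as a list of enzymes that supply pyruvate to the mitochondria. *Hk1*, a hexokinase that binds the outer mitochondrial membrane, was called in the cornea, with a mean of 421 normalized counts in AL and 243 in CR and no overlap (log2 change -0.81, SE 0.15, limma adjusted p = 0.0103). It stayed called in all 10 removals of 1 library (limma adjusted p from 0.0095 to 0.0382). It was 1 of 15 glycolysis genes tested there, of which 10 were lower and 5 higher. For 2 of the 15, *Hk1* among them, every CR library lay below every AL library (background 1.89%). In the conjunctiva *Hk1* differed by 0.02 (SE 0.17). Of the 15 tested in the conjunctiva 11 were higher. *Aldoc*, an aldolase, had a mean of 51.8 in AL and 147 in CR conjunctivas (log2 change 1.41, SE 0.32) and did not pass (limma adjusted p = 0.0767). It was the 1 gene of the 15 for which every CR library lay above every AL library (background 1.92%). For 1 other gene of the list every CR library lay below every AL library (background 1.95%).

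Carriers of the mitochondrial membranes were even in the cornea, with 4 of 8 higher, and 7 of 8 were higher in the conjunctiva, none called. *Vdac2*, a channel of the outer membrane, had 1539 normalized counts in AL and 1983 in CR corneas (log2 change 0.36, SE 0.10, limma adjusted p = 0.0799). Of 11 genes that replicate and transcribe mitochondrial DNA, 5 were higher in the cornea and 3 in the conjunctiva, none called. Mitochondrially encoded transcripts were not analysed here, so the balance of both genomes was not tested. *Hk1*, *Aldoc* and *Vdac2* were named after their values were seen.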
